A study of Pyrus pyrifolia with 6 samples.

Results

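LOC103965247 and LOC103965244, described as abscisic stress-ripening protein 3-like and 1-like, are neighbouring pear genes on scaffold NW_008988326.1. They are the only 2 of 42933 listed genes whose description starts with abscisic stress-ripening (ASR). They were chosen by their fall in these same libraries, together with that description and the shared scaffold, so their difference between the groups is given as a description, with no test. The libraries are from the fruit skin of Pyrus pyrifolia, cultivar Cuiguan, from orchard trees that were 6 years old. In the bagged group, fruitlets were covered with white paper bags at 20 days after full bloom and with yellow-white bags of more than 1 layer at 40 days. Fruits of the untreated group carried no bag, both groups were collected at 95 days, and each group has 3 libraries that the labels call biological replicates without giving the fruits or trees behind each. The study addresses russet, the corky brown layer that covers part of the skin in this semi-russeted cultivar. It has 1 cultivar and 1 harvest time, and the labels give no measure of what the bags altered around the fruit.

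ASR proteins are small, very hydrophilic plant proteins that carry the ABA/WDS domain, named for abscisic acid (ABA) and water deficit stress. The family was first described in tomato from transcripts raised by abscisic acid, drought and ripening, and Arabidopsis has no member. In tomato the protein is largely unfolded in solution, binds zinc and can shield other proteins, and in grape a family member binds the promoter of a hexose transporter gene, so the family is known both as protectants and as regulators of sugar transport. In tomato and strawberry fruit, ASR genes have been linked to abscisic acid and sugar during ripening.

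Library totals ran from 15764049 to 19546285 counts, and 25139 genes were tested with edgeR's quasi-likelihood fit, a gene being called at a Benjamini-Hochberg adjusted p under 0.05. Of these, 2.67% were called, 0.971% higher and 1.69% lower in bagged skin. The number called was 670, and it was 205 to 420 without any 1 library other than untreated replicate 3. Of 30 listed epidermis markers 26 had a count, with a summed level of 164 to 186 CPM (counts scaled to a common library size with TMM factors) in untreated and 190 to 252 CPM in bagged libraries, and the marker LOC103938356, a protodermal factor 1-like gene, rose by 1.86 ± 0.34 (SE) on the log2 scale (edgeR adjusted p = 0.0364), a call that was lost without any library other than bagged replicate 2 (adjusted p 0.0702 to 0.115). Of the 18 tested epidermis markers, 11 (61.1%) had an unadjusted p below 0.05, 9 higher and 2 lower, against 15.9% of all tested genes, and their median log2 fold change was 0.47. Of 36 flesh markers 30 had a count, with sums of 747 to 884 CPM in untreated and 959 to 1053 CPM in bagged libraries, and the sucrose synthase gene LOC103950289 fell by 1.14 on the log2 scale (edgeR adjusted p = 0.0393), a call that was lost without any library other than untreated replicate 3 (0.0534 to 0.106). Of the 19 tested flesh markers, 7 (36.8%) had an unadjusted p below 0.05, 3 higher and 4 lower. Phloem markers, 10 of 12 with a count, summed to 48.6 to 118 CPM in untreated and 52.4 to 58.0 CPM in bagged libraries. Of these, 7 were tested and none was called. Xylem and stone cell markers, 13 of 15 with a count, were low in both groups, at 3.51 to 7.41 CPM in untreated and 3.09 to 3.55 CPM in bagged libraries. Only 2 of them were tested, with log2 fold changes of -1.10 and -0.64, and none was called. In bulk skin, fewer cells of a type and less RNA per cell cannot be told apart, and the part of these marker shifts in the ASR values was not tested.

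LOC103965247 lies on the plus strand from 108827 to 123596 in the authors' listing, a span of 14770 bases that holds a transcript of only 505 bases, so 14265 bases of the span lie outside the listed transcript length. Only 1.91% of the listed protein-coding genes have a longer span, and 3.37% have a shorter transcript. In untreated skin it had 871, 1849 and 628 counts in replicates 1 to 3, which is 99.2, 186 and 76.3 FPKM (the authors' fragment values scaled to transcript length and library depth). In bagged skin the counts were 39, 27 and 45, or 4.66, 3.06 and 4.65 FPKM. All bagged libraries lay far below all untreated ones, and replicate 2 was the highest untreated library and the lowest bagged one. Every bagged library was below every untreated one in 2771 of the 25139 tested genes, by CPM.

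LOC103965247 had a mean of 61.1 ± 29.1 CPM in untreated and 2.09 ± 0.469 CPM in bagged skin (SD, n = 3). Its log2 fold change was -4.87 ± 0.39 (SE), or 29.2-fold lower in bagged skin. In FPKM it ranked between 412 and 1403 from the top among the tested genes in the untreated libraries, above 94.4% to 98.4% of them. In the bagged libraries it ranked between 15407 and 17266, above 31.3% to 38.7% of them. The gene thus moved from among the better expressed genes of the skin to below the middle of the tested genes, while staying measurable: the exact Poisson 95% interval of its 27 counts in bagged replicate 2 is 17.8 to 39.3 counts, which covers counting error only.

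LOC103965244 lies on the same strand from 144967 to 146223, a compact gene of 1257 bases with a listed transcript of 619 bases. Its untreated counts were 330, 680 and 305 in replicates 1 to 3, or 30.7, 55.8 and 30.2 FPKM. Its bagged counts were 12, 3 and 11, or 1.17, 0.277 and 0.927 FPKM. The groups were again wide apart, with replicate 2 the highest untreated and the lowest bagged library.

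LOC103965244 had a mean of 24.2 ± 9.01 CPM in untreated and 0.491 ± 0.287 CPM in bagged skin (SD, n = 3). Its log2 fold change was -5.61 ± 0.44 (SE), or 48.8-fold lower. It stood above 82.4% to 91.8% of the tested genes in the untreated libraries and above 2.98% to 15.7% in the bagged ones, in FPKM. The gene passed the filter on low counts through its untreated libraries. The 3 counts of bagged replicate 2 have an exact Poisson 95% interval of 0.619 to 8.77 counts, so the size of the fall is set by few reads. Without that library it was 5.21 on the log2 scale, and on log2(FPKM + 1) values the fall was 4.45.

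Among all tested genes, LOC103965244 had the 4th lowest and LOC103965247 the 6th lowest log2 fold change. That they rank so low follows from how they were chosen. The authors' deposited table gives log2 fold changes of -5.62 for LOC103965244 and -4.87 for LOC103965247.

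**Figure D1:**
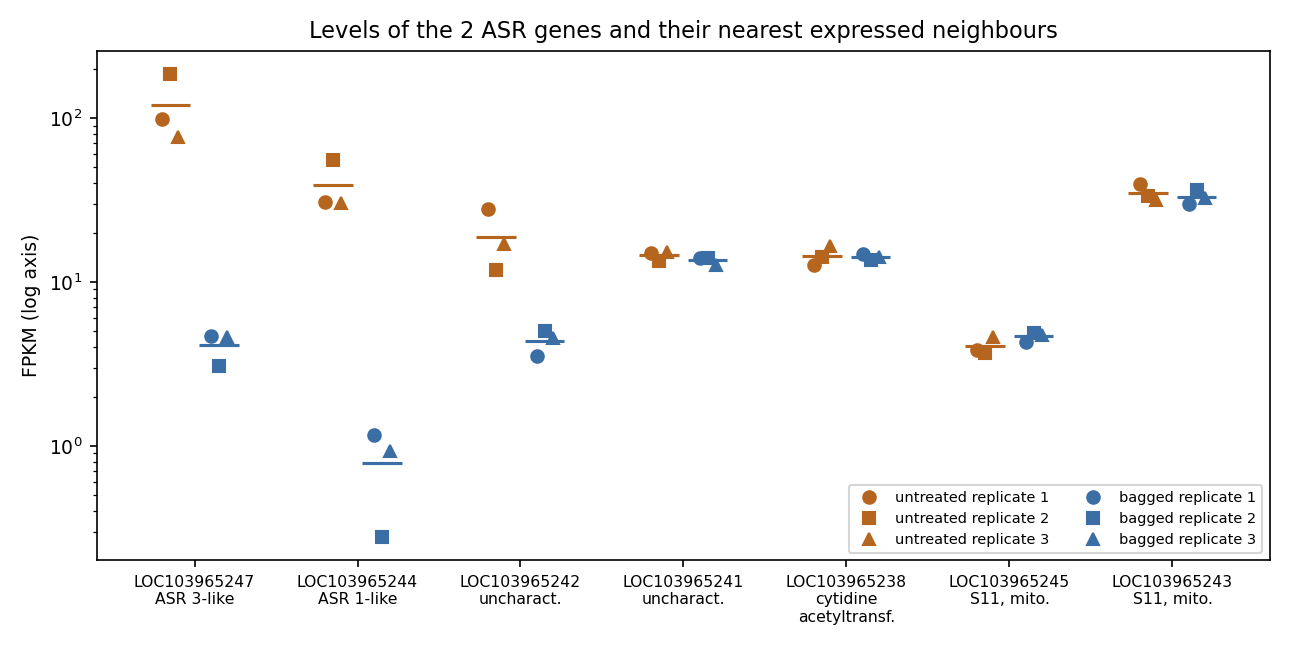
FPKM on a log axis in each of the 6 libraries (points, shaped by replicate) with the group mean (bar), for the ASR genes and 5 expressed genes beside them on the scaffold. The ASR genes fall from 76.3 to 186 and 30.2 to 55.8 FPKM in untreated skin to 3.06 to 4.66 and 0.277 to 1.17 FPKM in bagged skin, LOC103965242 falls less, and the other 4 genes overlap between the groups.

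The ASR 3-like gene was the more abundant of the pair per length of transcript in every library. Its FPKM was 3.24, 3.33 and 2.52 times that of the ASR 1-like gene in untreated replicates 1 to 3. In bagged replicates 1 to 3 the ratio was 3.98, 11.03 and 5.01, with the value of 11.03 resting on the 3 counts of LOC103965244. The ratio was thus higher in every bagged library than in any untreated one, as the larger fold change of LOC103965244 implies. The ratios of bagged replicates 1 and 3 also rest on few reads, 12 and 11 counts of LOC103965244. The exact Poisson intervals of these counts are wide, at 6.20 to 21.0 and 5.49 to 19.7 counts. Whether the ratio differs between the groups beyond such error was not tested. Together the pair summed to 130, 242 and 107 FPKM in untreated and to 5.83, 3.34 and 5.57 FPKM in bagged replicates 1 to 3.

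The pair also varied together within the groups. Untreated replicate 2 had 2.11 times the mean CPM of the other untreated libraries for LOC103965247 and 1.82 times for LOC103965244. On the log2 CPM scale, that library lay 0.72 and 0.57 above its group mean, and bagged replicate 2 lay 0.38 and 0.94 below its own. Over the 6 libraries the deviations from the group means had a Pearson r of 0.82, a description over few points that share library and depth. The sources used here do not say how reads that match more than 1 gene were counted, and the part of any such reads in this r was not tested. The spread between replicates was above that of most genes, with a biological coefficient of variation of 28.0% for LOC103965247 and 28.6% for LOC103965244 against a median of 17.2% over the tested genes, of which 80.7% and 82.0% lay lower.

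The scaffold carries 44 listed genes, of which 26 were tested, the ASR pair included, and 11 had no count in any library. The members are 21370 bases apart, with no listed gene between the end of LOC103965247 and the start of LOC103965244. Of the 24 other tested genes on the scaffold, 1 was called lower and none higher (edgeR), beside 1.69% and 0.971% of all tested genes. An unadjusted p below 0.05 was found for 4 of the 24, and for 15.9% of all tested genes. The median log2 fold change of the 24 was 0.01, beside -0.01 over all tested genes, and 20 of the 24 lay within 0.5 of no change.

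The neighbour that fell is LOC103965242, an uncharacterized gene on the plus strand from 99092 to 100300, which ends 8526 bases before LOC103965247 begins. It had 348, 167 and 200 counts in untreated replicates 1 to 3 and 42, 63 and 63 in bagged ones, that is 27.9, 11.8 and 17.1 against 3.52, 5.01 and 4.57 FPKM. The groups did not overlap. The untreated mean was 13.7 ± 5.93 CPM and the bagged mean 3.15 ± 0.547 CPM (SD, n = 3). The log2 fold change was -2.11 ± 0.33 (SE), and edgeR gave it an adjusted p of 0.0201. Leaving out any bagged library ended the call, with adjusted p of 0.0888, 0.0658 and 0.0603 for replicates 1, 2 and 3, as did limma-voom (0.0527).

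LOC103965242 did not share the order of replicates seen in the ASR pair. Untreated replicate 2, the highest library for both ASR genes, was its lowest untreated one, and its deviations from the group means had an r of -0.64 with LOC103965247 and -0.65 with LOC103965244 over the 6 libraries. Of the 426 genes called lower, 17.8% had at least 1 other such gene with a start within 50 kb on the same scaffold, against 9.79% of all tested genes. At least 2 others lay within that distance for only 13 of them, or 3.05%, against 0.919% of all tested genes. The ASR genes and LOC103965242 are among these 13, so the higher share comes in part from the members themselves. The difference was not tested, the window was chosen after these positions were seen, and the ASR genes were chosen for sharing a scaffold.

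The span of LOC103965247 overlaps 3 other listed genes. LOC103965245, on the minus strand from 122052 to 123036 and described as a mitochondrial ribosomal protein S11 gene, had 51 to 58 counts in untreated and 55 to 70 in bagged libraries, with a log2 fold change of 0.19 ± 0.21 (SE; edgeR adjusted p = 0.721). LOC103965268, a glycine-rich cell wall protein gene on the plus strand, and the uncharacterized LOC103965246 on the minus strand had no count in any library. The sources used here do not say whether strand was used in counting. The spans overlap, but whether the transcripts do is not given, so it is not known if any reads were shared between these genes. Of the 3 genes in the span, only LOC103965245 was tested, and it was not called.

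A gene with the same S11 description, LOC103965243 (minus strand, 159247 to 160876), is the first tested gene after LOC103965244. It had 517 to 691 counts in untreated and 495 to 641 in bagged libraries, and a log2 fold change of -0.09 ± 0.12 (SE; edgeR adjusted p = 0.784). LOC103965243 and LOC103965245 share a description, but their sequences were not compared. Whether any reads match both genes is not known. On the other side, LOC103965241, uncharacterized, and LOC103965238, an RNA cytidine acetyltransferase 1-like gene that modifies RNA, had log2 fold changes of -0.11 ± 0.09 and -0.03 ± 0.11 (edgeR adjusted p = 0.633 and 0.933). The other listed genes among the 3 nearest on the right, LOC108868539 and LOC103965269, had no counts.

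**Figure D2:**
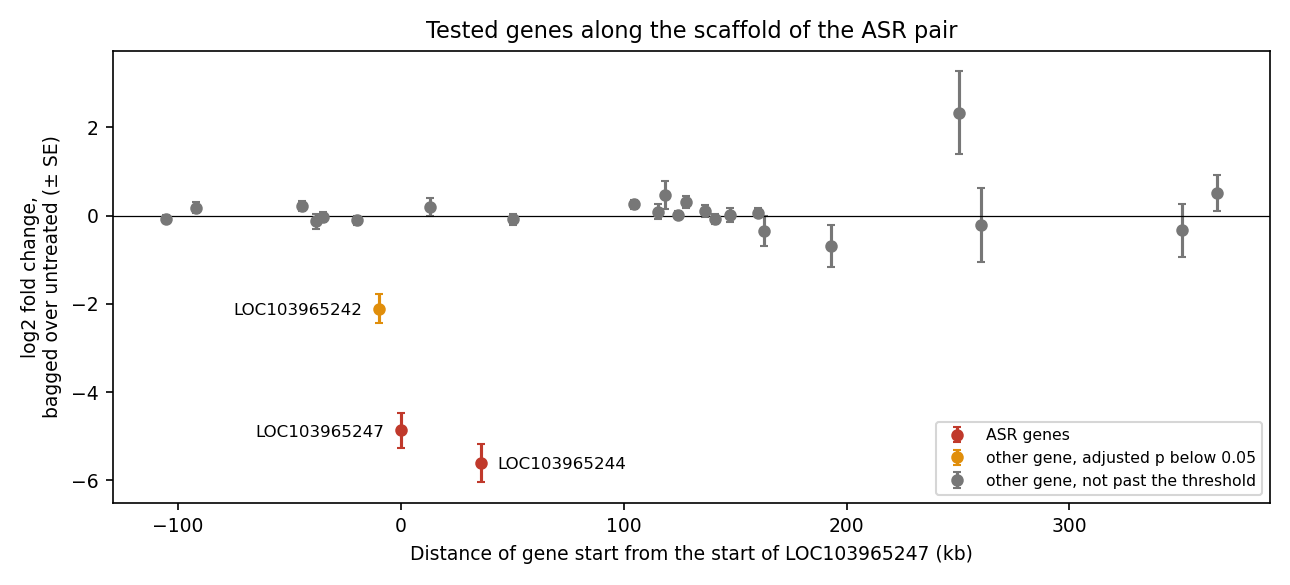
Log2 fold change (bagged over untreated, ± SE) of the 26 tested genes of the scaffold against the distance of their start from that of LOC103965247, in kb. The ASR genes lie at -4.87 and -5.61 and LOC103965242 at -2.11, while 20 of the other genes lie within 0.5 of 0. The point at 2.33 is LOC103965261, named after its values were seen, whose counts were 11 to 19 in 5 libraries and 184 in bagged replicate 2.

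The profile over the 6 libraries was compared between each ASR gene and all tested genes by the Pearson r of log2 CPM, as a description of likeness. The r between LOC103965247 and LOC103965244 was 0.993, and 420 and 372 other tested genes had an r above 0.95 with LOC103965247 and LOC103965244, respectively. The 6 points share the split between the groups, which the members were chosen on. For LOC103965247 the closest described gene was LOC103929026 (r = 0.9996), similar to the auxin-induced gene ARG7. Its counts of 245, 486 and 203 in untreated and 17, 13 and 22 in bagged replicates 1 to 3 follow those of LOC103965247 library by library, and its log2 fold change was -4.13 ± 0.33 (SE).

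Next came LOC103929197 (r = 0.999), a leucoanthocyanidin reductase-like gene of an enzyme that makes catechin units for condensed tannins, with a log2 fold change of -2.56 ± 0.23. LOC103959586, described as a chloroplast anion transporter 3, had an r of 0.998 and a log2 fold change of -2.93 ± 0.24. LOC103967163, a beta-D-xylosidase 2 gene whose family trims xylan and arabinan of the cell wall, had an r of 0.997 and -3.04 ± 0.23. LOC103942958, an AT-hook nuclear protein 15-like gene of a family of DNA-binding proteins, had an r of 0.996 and -2.19 ± 0.19.

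For LOC103965244 the closest described gene was LOC103955620 (r = 0.995), similar to subunit 33A of the mediator complex that links regulators to RNA polymerase II, with a log2 fold change of -2.17 ± 0.26. LOC103929026, LOC103965247, LOC103959586 and LOC103929197 followed, with r between 0.992 and 0.993. All of these genes were highest in untreated replicate 2, and all but LOC103942958 were lowest in bagged replicate 2. The genes other than the ASR pair were picked by their r over these same libraries, so a shared order of replicates follows in part from that choice. None of their falls was as large as those of the ASR pair, which was itself chosen for its fall.

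**Figure D3:**
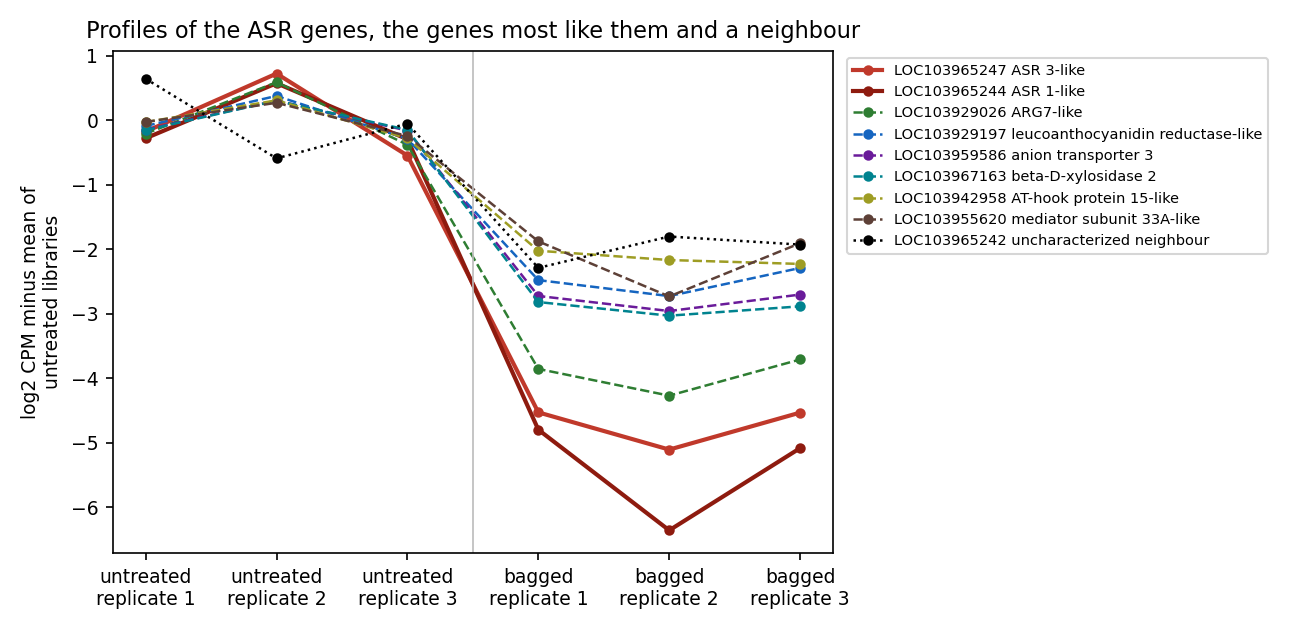
Log2 CPM of each gene in the 6 libraries, minus its mean over the untreated libraries, for the ASR genes (solid), the 6 described genes of most alike profile (dashed) and the neighbour LOC103965242 (dotted). The dashed genes, picked by r over these same libraries, share the rise in untreated replicate 2, while LOC103965242 is lowest there among the untreated libraries. The ASR genes, chosen for their fall, fall furthest in bagged skin.

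The genes that make, break down and sense abscisic acid, the hormone of the family name, were counted beside the pair. Of 46 tested genes in 4 lists for abscisic acid, none was called higher or lower by edgeR, where 2.67% of all tested genes were called. At an unadjusted p below 0.05 there were 10, or 21.7% of them, 3 higher and 7 lower, against 15.9% of all tested genes. DESeq2, which called 1501 of all 25139 tested genes, called 2 of the 46. These were the protein phosphatase gene LOC103935784 (37-like), higher by 0.69, and the kinase gene LOC103940369 (SRK2A), lower, at -0.57 on the log2 scale.

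Abscisic acid synthesis had 11 tested genes with a median log2 fold change of 0.00. Its most abundant gene, LOC103956812, a zeaxanthin epoxidase of the carotenoid step, had 79.6 ± 12.96 CPM in untreated and 81.5 ± 8.90 CPM in bagged skin (SD, n = 3), and its log2 fold change was 0.03 ± 0.13 (SE; edgeR adjusted p = 0.937). Of the 3 tested genes for 9-cis-epoxycarotenoid dioxygenase, the rate-setting step of synthesis, LOC103957334 had 52, 74 and 81 counts in untreated and 19, 34 and 54 in bagged replicates 1 to 3, a log2 fold change of -0.98 ± 0.36 with an adjusted p of 0.239. By CPM, every bagged library of that gene lay below every untreated one. That was so for 1 of the 11 synthesis genes and for 2771 of all 25139 tested genes. LOC103945979 and LOC103951286 were at -0.25 ± 0.43 and 0.17 ± 0.35. These 3 genes were named after their values were seen.

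Breakdown of abscisic acid had 6 tested genes, all for its 8'-hydroxylase, with a median of 0.71 and a range from -1.52 to 2.11. At an unadjusted p below 0.05 there were 2, or 33.3%, 1 higher and 1 lower, against 15.9% of all tested genes. The lowest edgeR adjusted p in this list was 0.179. The most abundant, LOC103955370, was at -0.11 ± 0.11 (SE; edgeR adjusted p = 0.687). LOC103955532, named after its values were seen, had 91, 59 and 489 counts in untreated and 1042, 402 and 1495 in bagged replicates 1 to 3. The groups overlapped, through untreated replicate 3, and its log2 fold change of 2.11 ± 0.82 had an adjusted p of 0.263. Without untreated replicate 3 it was 3.73 (adjusted p = 0.0272), the only call in this list when a library was left out.

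The receptors, kinases and phosphatases of abscisic acid signalling had 23 tested genes with a median of -0.03 and a range from -0.57 to 0.69. The most abundant, the phosphatase 2C 37-like gene LOC103942951 of a group that holds the pathway off, had 225 ± 51.1 CPM in untreated and 272 ± 47.1 CPM in bagged skin (SD, n = 3; log2 fold change 0.28 ± 0.19, edgeR adjusted p = 0.536). The response factors, which bind the promoters of abscisic acid-responsive genes, had 6 tested genes with a median of 0.12 and a range from -0.29 to 0.34. LOC103950197, similar to ABSCISIC ACID-INSENSITIVE 5, was at 0.21 ± 0.12 (adjusted p = 0.445).

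Dehydrins and late embryogenesis abundant (LEA) proteins are, like ASR proteins, hydrophilic proteins of dry or water-stressed cells. Of 48 listed genes 16 were tested and none was called by edgeR, with a median of 0.19. At an unadjusted p below 0.05 there were 7, or 43.8%, 6 higher and 1 lower, against 15.9% of all tested genes. DESeq2 called 2 of the 16 higher and 1 lower, where it called 1501 of all 25139 tested genes. The most abundant gene, dehydrin COR47 (LOC103927172), had 1129 ± 199 CPM in untreated and 1235 ± 82.6 CPM in bagged skin (SD, n = 3), and its log2 fold change was 0.13 ± 0.14 (edgeR adjusted p = 0.707). Named after its values were seen, the dehydrin DHN3-like gene LOC103937812 had 101, 257 and 71 counts in untreated and 13, 12 and 50 in bagged replicates 1 to 3, at -2.49 ± 0.61 with an adjusted p of 0.0878. Without bagged replicate 3 it was at -3.39 (0.0446). Without untreated replicate 3, the LEA genes LOC103927311 and LOC103927318 were called higher, at 2.87 and 1.37 (adjusted p = 0.0410 and 0.0402), and these are also those that DESeq2 called higher.

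Other proteins of water and cold stress had 35 tested genes, of which 1 was called higher and none lower, beside 0.971% and 1.69% of all tested genes, with a median of 0.04. At an unadjusted p below 0.05 there were 11, or 31.4%, 8 higher and 3 lower, against 15.9% of all tested genes. The gene that rose, LOC103957490, is RD22-like, of a family that abscisic acid and drought induce in Arabidopsis. It had 113, 74.7 and 113 CPM in untreated and 203, 303 and 297 CPM in bagged replicates 1 to 3, a log2 fold change of 1.42 ± 0.21 (SE; edgeR adjusted p = 0.0164), in the direction opposite to the ASR pair. The call was lost without bagged replicate 2 (adjusted p = 0.0587), and LOC108865399 and LOC103957488 were called higher as well without bagged replicate 1, at 0.90 and 0.94 (adjusted p = 0.0321 for both).

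Hexose and polyol transporters, of which a hexose transporter gene is a known target of an ASR protein in grape, had 28 tested genes, 2 lower and none higher, beside 1.69% and 0.971% of all tested genes, with a median of -0.30. At an unadjusted p below 0.05 there were 13, or 46.4%, 11 lower and 2 higher, against 15.9% of all tested genes. Both that fell are described as putative polyol transporter 1, a family that in pear and its relatives carries sorbitol. LOC103964421 had 269, 660 and 242 counts in untreated and 69, 38 and 82 in bagged replicates 1 to 3, so that its untreated high and its bagged low were again in replicate 2. Its log2 fold change was -2.59 ± 0.39 (SE; edgeR adjusted p = 0.0187). LOC103936324 had 22.1, 24.5 and 15.2 against 8.66, 7.10 and 6.64 CPM, at -1.47 ± 0.20 (adjusted p = 0.0143).

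LOC103964421 was no longer called when bagged replicate 1 or 2 was left out (adjusted p = 0.0733 and 0.0614). LOC103936324 was no longer called when untreated replicate 1 (0.0524) or bagged replicate 2 (0.0576) was. Without bagged replicate 2, then, no transporter gene was called lower, and LOC103956610, sugar transport protein 13-like, was called higher, at 1.45 (0.0407). The transporter gene LOC103962199, named after its values were seen, was not called with all libraries by edgeR. It was called lower by edgeR without bagged replicate 3, at -2.83 (adjusted p = 0.0127), and by limma-voom, at -2.26 (adjusted p = 0.0350). Over the 7 lists together, edgeR called 3 of 125 tested genes, 2.40%, next to 2.67% of all tested genes. At an unadjusted p below 0.05 there were 41, or 32.8%, against 15.9% of all tested genes, 19 higher and 22 lower. The lowest log2 fold change in the 7 lists was -2.59, against -4.87 and -5.61 for the ASR pair. That the pair lies lower follows from its choice by its fall.

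**Figure D4:**
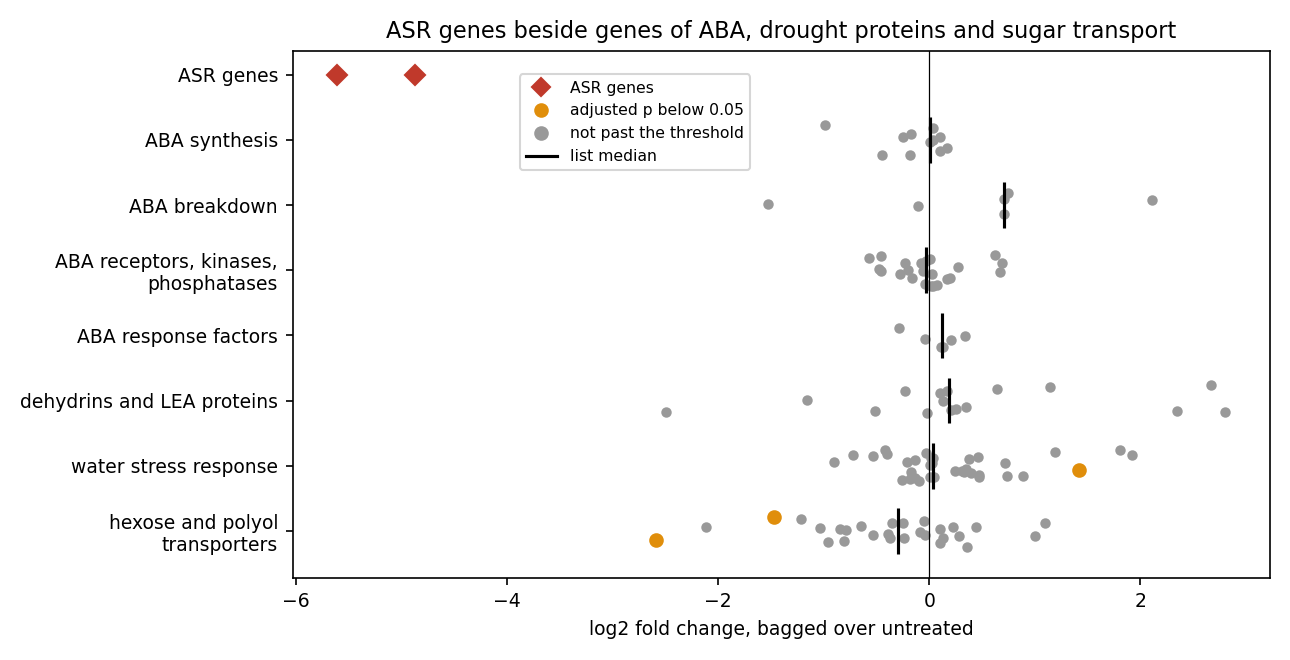
Log2 fold change (bagged over untreated) of the ASR genes (diamonds) and of each tested gene in 7 lists (points, spread vertically for legibility), with the list median as a bar. The ASR genes, which were chosen for their fall, lie at -4.87 and -5.61. The list medians lie between -0.30 and 0.71, and the coloured points are the 3 genes with an edgeR adjusted p below 0.05.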

How the data were processed

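RNA-seq reads of 3 untreated and 3 bagged libraries of pear fruit skin were aligned by the authors with HISAT2, per the submitters' processing notes. The sources used here do not name the counter, its handling of strand, or the build and gene annotation. The deposited table holds the authors' read counts per gene and FPKM values, group means as a normalized signal that was not used, and the authors' log2 fold changes with p-values, of which only the fold changes are quoted. No per-sample column was left unmapped (0).

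Counts were filtered (filterByExpr, minimum count 10, minimum total 15), scaled by TMM and tested with edgeR 4.0.16 in R 4.3.3 (quasi-likelihood, Benjamini-Hochberg adjusted p below 0.05). The edgeR script was tested on simulated data. The SE is the log2 fold change divided by the root of the F statistic, and its median was 0.17 over the tested genes. DESeq2 1.42.0 and limma 3.58.1 were alternatives, 16 in all. Library totals were 15764049 to 19546285 counts. Poisson intervals (95%) cover counting error only. The labels call the replicates biological but do not say that they came from separate trees. The p-values set the group difference against the spread between these libraries. That spread may in part be technical and may not reflect the spread between trees.

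The members, lists and tests were chosen with earlier results of these data known. Gene descriptions were matched after removing transcript variant suffixes. The text names the members, the genes that overlap them and the 3 nearest listed genes on either side, the 5 described genes of most alike profile for each member (mean log2 CPM of at least 2), up to 2 called genes of each list and, for lists with none, the most abundant gene. Genes outside that rule are said to be so, or were named for a call under an alternative after their values were seen.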

Additional observations from a re-analysis of the deposited data

How the results depend on the processing

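The log2 fold change stayed between -5.11 and -4.41 for LOC103965247 and between -5.96 and -4.45 for LOC103965244 over the 16 alternatives, the last value (-4.45) being that on log2(FPKM + 1), where the pseudocount exceeds most of its bagged values. The genes called over the whole table were 670, 1501 with DESeq2 and 205 to 692 when 1 library was left out. The called list genes were 3, 7 without the low-count filter, 17 with DESeq2, 7 on log2(FPKM + 1) and 1 to 7 when 1 library was left out. The 17 with DESeq2 are of 125 list genes, beside 1501 of 25139 tested genes. The share called by DESeq2 was thus larger in the lists than over the table, unlike with edgeR, and the difference was not tested. With DESeq2, 1 receptor, kinase or phosphatase gene was higher and 1 lower, 2 dehydrin and LEA genes were higher and 1 lower, 5 water stress genes were higher, and 1 transporter gene was higher and 6 lower. Without the low-count filter, 2 dehydrin and LEA genes and 2 water stress genes were higher, and on log2(FPKM + 1) 3 dehydrin and LEA genes were. With 1 library left out, higher calls ran from 0 to 1 for abscisic acid breakdown, 0 to 2 for dehydrins and LEA proteins (lower 0 to 1), 0 to 3 for water stress and 0 to 1 for transporters (lower 0 to 3). Same-numbered libraries deviated together with correlations of only -0.04, 0.08 and 0.06, so the numbers were not taken to pair the samples. With a replicate block, 7 list genes were called, with 1 gene of abscisic acid breakdown and 2 dehydrin and LEA genes higher, 728 genes were called in all, and the members were at -4.76 and -5.55. The cause of these changes was not tested. The 3 to 12 counts of LOC103965244 in bagged skin limit how well its fall is measured.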
